A study of Homo sapiens with 12 samples.

Results

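The EGF family ligands and the ERBB receptors were followed by gene symbol through the transcripts of MCF-12A cells. The set comprised 9 genes, of which 6 encode ligands (AREG, EREG, HBEGF, TGFA, BTC and NRG1) and 3 encode receptors (EGFR, ERBB2 and ERBB3), out of 13555 genes in the deposited tables. MCF-12A is a cell line of non-tumour human breast epithelium, and it was the only line used. Cells had received either TGFbeta1, a cytokine that induces epithelial-mesenchymal transition in many epithelial cells, or vehicle, named control in the labels. There were 6 libraries per group, deposited in 2 tables that were normalised separately: replicates 1 to 3 of both groups make up the first set and replicates 4 to 6 the second. Neither dose nor duration of the treatment is given in the labels, nor whether replicates came from separate cultures, so that the spread behind each p-value is that of these samples and could be technical. Expression is given as FPKM (fragments scaled to the length of the transcript and to the total of the library), summed over the listed protein-coding transcripts of a gene.

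The ligands of this family are made as membrane-anchored precursors, and metalloproteases such as ADAM17 and ADAM10 cut them from the cell surface. AREG, EREG, HBEGF, TGFA and BTC bind EGFR, while NRG1 binds ERBB3. HBEGF, BTC and EREG can also act through ERBB4. Bound receptors pair with one another: ERBB2 has no known ligand of its own and serves as the preferred partner, and ERBB3 has little kinase activity and couples the pair to PI3 kinase. In the mammary gland AREG is known as the ligand through which EGFR drives growth of the ducts.

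The libraries were first checked against their labels. Of 12 known TGFbeta target genes, 12 passed the test as higher with TGFbeta1 in the first set, with a median log2 change of 2.44, against -0.05 over all tested genes. Among the later libraries 0 of 11 tested targets passed limma's test, and the median log2 change was -0.12. Of these 11, 5 had an unadjusted p under 0.05: FN1, TGFBI, PMEPA1 and LTBP2 were lower in the libraries labelled TGFbeta1 (log2 changes of -0.74, -1.42, -0.43 and -0.35), against the direction of the first set, and BHLHE40 was higher (0.23); LTBP2 and BHLHE40 are named after their values were seen. The inhibitory SMAD gene SMAD7 rose from 1.22 ± 0.189 to 4.35 ± 0.588 FPKM in the first set (SD, n = 3; adjusted p = 0.00199); its means in the second were 1.12 ± 0.0893 and 0.909 ± 0.17. The matrix gene FN1 had 26.7 ± 2.43 FPKM in the first set's controls and 397 ± 15.9 in the second's, on separate normalisations, and 214 ± 13.2 and 243 ± 61.9 in the respective TGFbeta1 libraries (SD, n = 3). The second set is therefore described as libraries labelled TGFbeta1. Of the 10 basal mammary markers, 10 were listed in each set; among them the keratin gene KRT5 was at 1303.2 to 1461.5 FPKM in controls of the first set. The FPKM of a library added up to 291801.6 to 318269.5 (first set) or 338968.0 to 358432.6 (second set). Depth is unknown, as no counts were used.

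Within the family, TGFA rose and ERBB3 fell with TGFbeta1 in the first set, and no other member passed the test in that set. TGFA had 2.88 times its control level and ERBB3 0.28 times. AREG, by far the highest member, was at 119 ± 24.0 and 126 ± 20.8 FPKM (SD, n = 3). None of the 7 members tested in the second set (0) passed limma's test, and 2 had an unadjusted p under 0.05. There, HBEGF had the highest ratio, with 1.54 times its control level. In bulk RNA, fewer cells of a type and less RNA per cell cannot be told apart.

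In numbers, 7 of the 9 members had a mean of at least 1 FPKM in the first set and were tested. Of these, 1 was called higher and 1 lower at an adjusted p under 0.05 by limma. Over all 10454 genes tested in that set, 20.9% were called, 9.0% higher and 11.9% lower. The 2 of 7 members called is thus close to the share over all genes. Scaling every library to an equal sum turned the split over all genes from 941 higher and 1245 lower to 1164 higher and 855 lower; the calls of TGFA and ERBB3 stayed. For the second set, 7 members were tested and 0 called by limma, 2 of them (HBEGF and TGFA) having an unadjusted p under 0.05, as had 11.2% of all tested genes. Of 10579 genes there, 0.321% were called, 0.17% higher and 0.151% lower. The 3 libraries of one group lay wholly to one side of the other for 3 of the 7 tested members in the first set, where this held for 43.3% of all tested genes (18.2% with TGFbeta1 higher and 25.1% lower). It was so for 2 of 7 in the second, against 19.3% of genes there (9.71% higher and 9.62% lower).

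**Figure D1:**
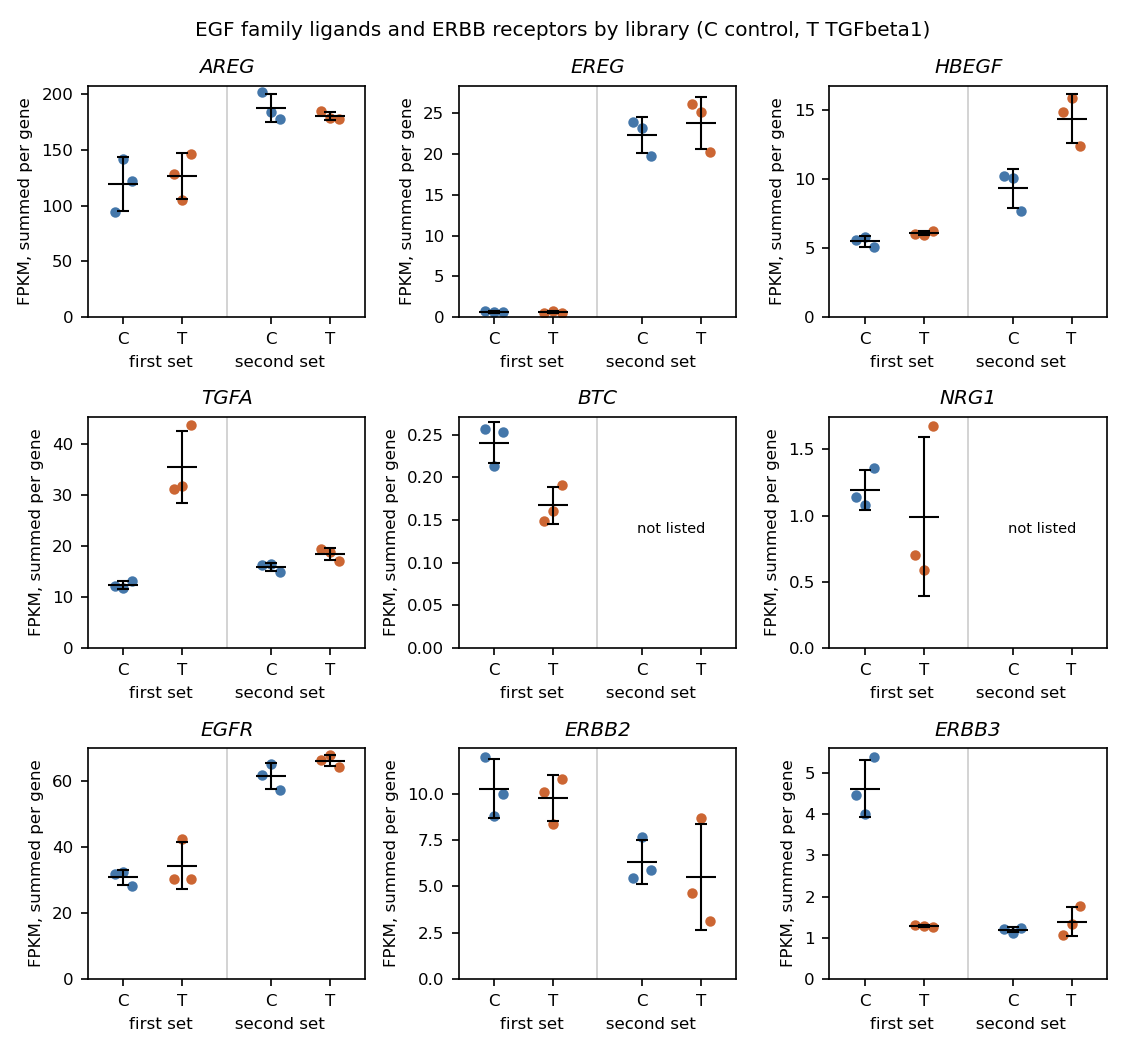
FPKM of each of the 9 members in every library (points), with mean and SD (black bars), for control (C) and TGFbeta1 (T) libraries of the first and the second set; each panel has its own linear axis from 0. TGFA is at 31.1 to 43.6 in the TGFbeta1 libraries of the first set against 11.7 to 13.2 in its controls, ERBB3 at 1.27 to 1.32 against 4.01 to 5.38, and EREG is under 1 in the first set and at 19.8 to 26.1 in the second.

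Among the ligands, TGFA encodes transforming growth factor alpha, a high-affinity ligand of EGFR that in spite of its name is unrelated to TGFbeta. The first set's controls had 12.1, 11.7 and 13.2 FPKM of TGFA, and its TGFbeta1 libraries 31.1, 31.8 and 43.6. All TGFbeta1 libraries lay above all controls, with TGFbeta1 3 the highest. The log2 change on the log2(FPKM + 1) scale was 1.44 (SE 0.15, adjusted p = 0.00229 by limma), the 137th largest of the 941 rises called. The second set's controls had 16.3, 16.4 and 14.9 FPKM, and the libraries labelled TGFbeta1 19.3, 18.7 and 17.1. The groups again did not overlap, with a log2 change of 0.20 (SE 0.07, adjusted p = 0.411). The change in the second set was smaller than in the first by 1.24 on the log2 scale: the test of the interaction of set and agent gave -1.24 (SE 0.17, adjusted p = 0.00101 by limma). Of 10571 genes, 13.6% passed that test, 7.54% with a difference above 0 and 6.04% below.

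On hg19, the build named in the submitters' processing notes, TGFA (ENSG00000163235.15_2) lies on the minus strand of chromosome 2 from 70674412 to 70781147, the span of its listed transcripts. The rise in the first set was seen in both main transcripts. ENST00000295400.10_1, which held 80.6% of the gene's FPKM, rose from 9.35 ± 0.935 to 29.2 ± 7.63 (SD, n = 3; adjusted p = 0.0155 over 18115 transcripts). ENST00000418333.6_1 rose from 2.54 ± 0.371 to 5.66 ± 0.509 (adjusted p = 0.0253). In release 29 of GENCODE they encode 160 and 159 residues. In that set 5.54% of tested transcripts were called. Among the later libraries ENST00000295400.10_1 held 96.0% of the gene's FPKM.

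The bases before the start of TGFA are shown because it was the ligand that rose, and those of AREG and EREG because these neighbours on chromosome 4 had unlike levels in the first set. Promoter windows from RefSeq (GRCh38.p14, a build other than that of the files) were matched for 7 of the 9 members; ERBB3 and NRG1 had none. Each line gives the 250 bases before a listed start, 5′ to 3′ on the gene's strand, with matches to 6 motifs on either strand in capitals. TGANTCA was searched as the AP-1 motif and TGACGTCA as the cAMP response element. An E-box was searched as CACCTG. For the GC box the letters were GGGCGG. The TATA box was searched as TATAAA. GTCTAGAC served as the SMAD binding element. The windows are chr2:70553827-70554076 and chr2:70553447-70553696, both minus strand, for the 2 starts listed for TGFA, chr4:74444886-74445135, plus strand, for AREG and chr4:74364895-74365144, plus strand, for EREG.
TGFA, first start: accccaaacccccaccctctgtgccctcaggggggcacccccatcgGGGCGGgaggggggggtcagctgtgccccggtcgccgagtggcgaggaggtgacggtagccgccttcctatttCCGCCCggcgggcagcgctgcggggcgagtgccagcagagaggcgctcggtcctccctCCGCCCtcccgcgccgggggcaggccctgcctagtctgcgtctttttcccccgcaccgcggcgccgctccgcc
TGFA, second start: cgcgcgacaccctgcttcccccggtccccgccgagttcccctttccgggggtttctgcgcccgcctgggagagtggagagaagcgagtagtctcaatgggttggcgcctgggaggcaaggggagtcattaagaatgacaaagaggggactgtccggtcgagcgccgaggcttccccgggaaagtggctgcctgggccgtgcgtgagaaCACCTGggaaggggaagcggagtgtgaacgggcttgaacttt
AREG: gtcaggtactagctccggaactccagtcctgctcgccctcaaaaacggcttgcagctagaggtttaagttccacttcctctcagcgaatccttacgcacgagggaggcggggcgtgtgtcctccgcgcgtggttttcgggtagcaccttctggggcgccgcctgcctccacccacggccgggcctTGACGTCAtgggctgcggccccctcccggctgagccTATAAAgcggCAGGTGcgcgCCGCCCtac
EREG: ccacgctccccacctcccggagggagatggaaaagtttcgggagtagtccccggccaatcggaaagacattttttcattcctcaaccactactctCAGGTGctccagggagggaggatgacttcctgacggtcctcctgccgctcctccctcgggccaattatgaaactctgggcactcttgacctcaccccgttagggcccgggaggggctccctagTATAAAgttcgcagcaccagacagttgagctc
The first TGFA window held 3 GC boxes, which begin 204, 131 and 73 bases before the start, and had 75.6% G and C. The second held 1 E-box, 42 bases before the start. AREG held a cAMP response element 65 bases and a TATA box 29 bases before the start, together with 1 E-box and 1 GC box. EREG held a TATA box 32 bases before the start and 1 E-box at 155 bases. Of 35116 windows of this length, 42.6% held a GC box, 17.5% an E-box, 10.7% a TATA box, 6.57% an AP-1 motif, 1.65% a cAMP response element and 0.182% the SMAD element. The shorter SMAD motif CAGAC, left in lower case, was in 38.0% of windows and had 1 match each in the first TGFA window and in that of EREG; it shares letters with the longer SMAD element. These matches describe the sequence only.

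AREG encodes amphiregulin, an EGFR ligand induced by oestrogen in the duct. It lies on chromosome 4 from 75310851 to 75320726 (ENSG00000109321.10_1). AREG was high throughout: the controls of the first set had 94.1, 142 and 122 FPKM, and its TGFbeta1 libraries 128, 105 and 146. The groups overlapped, and the log2 change was 0.09 (SE 0.19, adjusted p = 0.779), turning to -0.07 without control 1 and to -0.02 without TGFbeta1 3. Controls of the second set had 202, 184 and 178 FPKM and the libraries labelled TGFbeta1 185, 179 and 178, again overlapping (log2 change -0.06, SE 0.06, adjusted p = 0.774). AREG was the highest of the members in every group. It made up 82.7% to 87.9% of the summed ligand FPKM in controls of the first set and 72.8% to 76.9% with TGFbeta1, while TGFA went from 7.27% to 10.6% in the controls to 18.6% to 22.0%. The summed ligand FPKM was 139 ± 23.9 in these controls and 170 ± 27.4 with TGFbeta1 (SD, n = 3), and the groups overlapped. The AREG share in the second set was 78.8% to 80.8% and, with the TGFbeta1 label, 74.9% to 78.2%.

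EREG encodes epiregulin, a ligand of EGFR and ERBB4, and lies 56.4 kb before AREG on the same strand (chromosome 4, 75230860 to 75254468, ENSG00000124882.3_1). The first set's controls had 0.707, 0.61 and 0.57 FPKM of EREG and its TGFbeta1 libraries 0.554, 0.793 and 0.549, under the minimum of the test. In the later libraries EREG reached other levels: controls had 23.9, 23.2 and 19.8 FPKM and the libraries labelled TGFbeta1 26.1, 25.2 and 20.2. Within each set the groups overlapped, and in the second the log2 change was 0.09 (SE 0.12, adjusted p = 0.825). The level thus differed between the sets, whose control means were 0.629 and 22.3 FPKM. A difference between the controls of the sets this high or higher was seen in 0.241% of 10796 genes compared, rank 26 from the top; the sets were normalised separately and this was not tested. EREG has 1 listed transcript, ENST00000244869.2_1, and it is the same in both sets.

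HBEGF encodes the heparin-binding ligand of EGFR and ERBB4 (chromosome 5, 139712428 to 139726216, minus strand, ENSG00000113070.7_1). The first set's controls had 5.56, 5.84 and 5.06 FPKM of HBEGF, and its TGFbeta1 libraries 6.04, 5.94 and 6.25 (log2 change 0.13, SE 0.08, adjusted p = 0.319). The second set's controls had 10.2, 10.1 and 7.73 FPKM, and the libraries labelled TGFbeta1 14.9, 15.9 and 12.4. The groups did not overlap in either set. HBEGF's log2 change there was 0.57 (SE 0.14, adjusted p = 0.243 by limma over all genes). In the fit that joined the sets the log2 change was 0.35 (SE 0.11, adjusted p = 0.142), and the difference between the sets was 0.45 (SE 0.17, adjusted p = 0.121). In the authors' deposited table its 1 transcript had a fold of 1.49, p = 0.0211 and q = 0.624.

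BTC and NRG1 were low and were listed in the first set only. BTC encodes betacellulin, a ligand of EGFR and ERBB4, and was listed at 0.213 to 0.256 FPKM in the first set's controls and at 0.149 to 0.191 with TGFbeta1. The groups did not overlap, and without a filter the log2 change was -0.09 (SE 0.04, adjusted p = 0.202). NRG1 encodes neuregulin 1, the ligand of ERBB3 and ERBB4. Its controls had 1.14, 1.08 and 1.36 FPKM and its TGFbeta1 libraries 0.706, 0.589 and 1.68. TGFbeta1 3 lay above all controls and the other two below them (log2 change -0.17, SE 0.22, adjusted p = 0.62). Its main transcript ENST00000405005.3 had 0.844 ± 0.241 FPKM without and 0.249 ± 0.217 with TGFbeta1 (SD, n = 3), under the minimum. Neither gene is listed in the second table, whose lowest mean per transcript was 0.25 FPKM against 0.025 in the first.

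Of the receptors, ERBB3 fell in the first set. It lies on chromosome 12 from 56473645 to 56497289 (ENSG00000065361.14_2). Controls had 4.45, 4.01 and 5.38 FPKM of ERBB3, and TGFbeta1 libraries 1.32, 1.29 and 1.27. Every TGFbeta1 library was far below every control. The sums differed little among the TGFbeta1 libraries, while the single transcripts varied more, with 0.624, 0.67 and 0.243 FPKM for the full-length form. The log2 change was -1.28 (SE 0.11, adjusted p = 0.00143), the 172nd largest of 1245 falls called. The second set's controls had 1.22, 1.12 and 1.23 FPKM, and the libraries labelled TGFbeta1 1.07, 1.33 and 1.78. There the groups overlapped (log2 change 0.12, SE 0.13, adjusted p = 0.795 by limma). Only full-length ENST00000267101.7_1 was listed in that set, with a control mean of 1.19 FPKM. In the first set's TGFbeta1 libraries this form had 0.512 FPKM and the sum over transcripts 1.29, on a separate normalisation. The interaction of set and agent was 1.4 (SE 0.17, adjusted p = 0.000439).

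The sum over transcripts understated the fall of full-length ERBB3. ENST00000267101.7_1, which encodes all 1342 residues, had 3.84 ± 0.235 FPKM without and 0.512 ± 0.234 with TGFbeta1 (SD, n = 3), 0.133 times the control level (log2 change -1.69, SE 0.18, adjusted p = 0.0072 over all tested transcripts). The short ENST00000411731.6_1, with 183 residues in release 29, was at 0.428 ± 0.43 and 0.488 ± 0.131 FPKM, and ENST00000549832.1_1 at 0.199 ± 0.0547 and 0.243 ± 0.211. The full-length form had 3.71, 3.7 and 4.11 FPKM of the ERBB3 sum in controls 1 to 3, and 0.624, 0.67 and 0.243 with TGFbeta1. Assignment of reads between overlapping transcripts can move FPKM from one to another. The second table lists ENST00000267101.7_1 as the only ERBB3 transcript.

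EGFR, the receptor of most of these ligands, was the highest receptor in every group (chromosome 7, 55086714 to 55279321, ENSG00000146648.16_2). Controls 1 to 3 had 31.7, 32.4 and 28.1 FPKM of EGFR, and TGFbeta1 libraries 30.3, 42.5 and 30.2. The groups overlapped, with TGFbeta1 2 above the rest (log2 change 0.14, SE 0.15, adjusted p = 0.562; -0.02 without that library). The second set's controls had 61.7, 65.2 and 57.3 FPKM, and the libraries labelled TGFbeta1 66.4, 67.7 and 64.2, with overlap (log2 change 0.11, SE 0.06, adjusted p = 0.588). EGFR made up 64.6% to 71.7% of the summed receptor FPKM in controls of the first set and 71.5% to 81.5% with TGFbeta1, ranges that just overlap. For the second set its share was 88.1% to 90.3% in the controls and 87.1% to 92.9% in the libraries labelled TGFbeta1. The ERBB3 share was 8.85% to 12.4% in the first set's controls and 2.47% to 3.16% with TGFbeta1.

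The FPKM of single EGFR transcripts was uneven among libraries of the second set. The full-length ENST00000275493.6_1 had 61.3, 44.2 and 52.0 FPKM in controls 4 to 6, below the 65.8, 66.7 and 63.5 of the libraries labelled TGFbeta1. Control 5 had 13.4 FPKM of ENST00000454757.6_1, against 0.0543 in control 4, 2.43 in control 6 and 0.039 or less in the libraries labelled TGFbeta1. It also had 7.67 FPKM of ENST00000420316.6_1, which encodes 405 residues and so lacks the kinase domain. The sum in control 5 (65.2) was nonetheless within the range of the set. None of the 3 transcripts passed the test (adjusted p of 0.726 to 0.836).

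ERBB2 is the partner receptor (chromosome 17, 37844167 to 37884915, ENSG00000141736.13_2). The first set's controls had 12, 8.82 and 10.0 FPKM of ERBB2, and its TGFbeta1 libraries 10.1, 8.39 and 10.8. The groups overlapped (log2 change -0.07, SE 0.14, adjusted p = 0.785; 0.02 with an equal sum per library, 0.04 without control 1 and 0.03 without TGFbeta1 2). For controls 4 to 6 the values were 5.44, 7.67 and 5.89 FPKM, and for the libraries labelled TGFbeta1 4.64, 8.69 and 3.15, on both sides of the controls (log2 change -0.25, SE 0.32, adjusted p = 0.816; 0.02 without TGFbeta1 6). Its transcripts did not run parallel there. The full-length ENST00000269571.9_1 had 3.36, 7.18 and 5.69 FPKM in controls 4 to 6, against 1.36, 3.83 and 0.646 in the libraries labelled TGFbeta1 (adjusted p = 0.725). ENST00000580074.1_3 was listed at 0 in all 3 controls and at 2.43, 1.88 and 2.16 in the libraries labelled TGFbeta1. Limma gave this transcript an adjusted p of 0.0666, where 0.221% of 20392 transcripts were called, and in the authors' deposited table it had p = 2.15e-05 and q = 0.0344, the lowest q of any member's transcript. In release 29 it is a 6-exon fragment whose coding sequence is open at both ends. Its value can depend on how reads were divided within ERBB2, and a listed 0 can be a failed assignment. This was not tested. In the first set the same fragment was at 0.127 FPKM on average with TGFbeta1 and at 0.0604 in the controls.

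**Figure D2:**
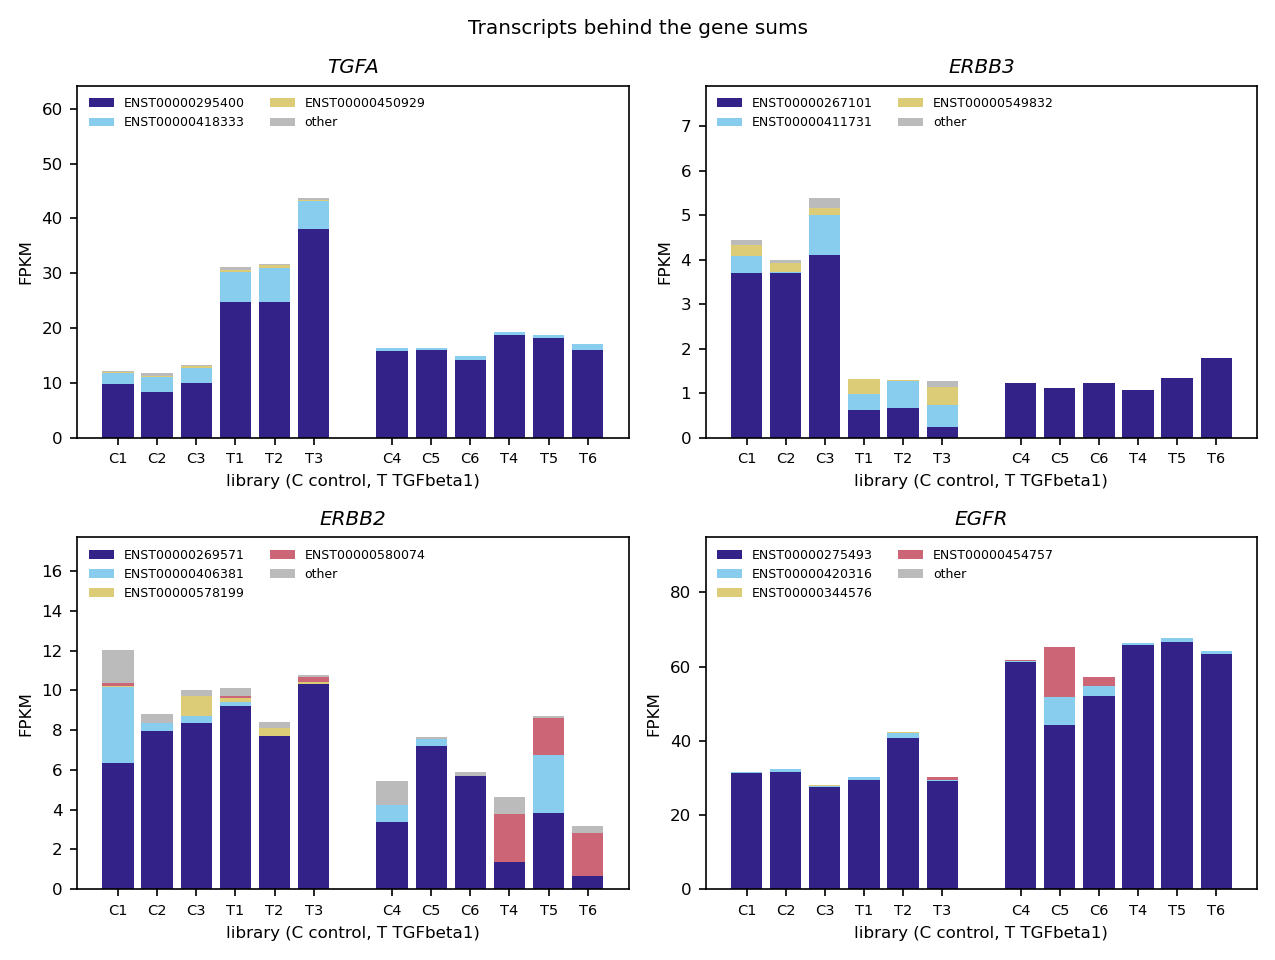
FPKM of the listed transcripts of TGFA, ERBB3, ERBB2 and EGFR in each library, stacked to the gene sum, with control (C) and TGFbeta1 (T) libraries of the first set (1 to 3) and the second set (4 to 6). Both main TGFA transcripts are higher in T1 to T3, full-length ERBB3 (ENST00000267101) is lower there, and ENST00000580074 of ERBB2 is seen in T4 to T6 at 1.88 to 2.43.

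In the order of levels, AREG came first in every group. In controls of the first set it ran AREG, EGFR, TGFA, ERBB2, HBEGF, ERBB3, NRG1, EREG and BTC. TGFA and ERBB2 overlapped there, as did HBEGF and ERBB3. With TGFbeta1, TGFA at 31.1 to 43.6 FPKM stood beside EGFR at 30.2 to 42.5, so that these neighbours did not differ beyond their spread, and ERBB3 overlapped NRG1, and NRG1 overlapped EREG. The order in the second set was AREG, EGFR, EREG, TGFA, HBEGF, ERBB2 and ERBB3 in both groups, and no neighbours overlapped. The control means of the sets were 30.7 and 61.4 FPKM for EGFR, 5.48 and 9.35 for HBEGF, 10.3 and 6.33 for ERBB2 and 4.61 and 1.19 for ERBB3, again on separate normalisations. For full-length ERBB3, the only ERBB3 form listed in the second set, they were 3.84 and 1.19. Over 10796 genes the median log2 ratio of second to first controls was -0.03.

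**Figure D3:**
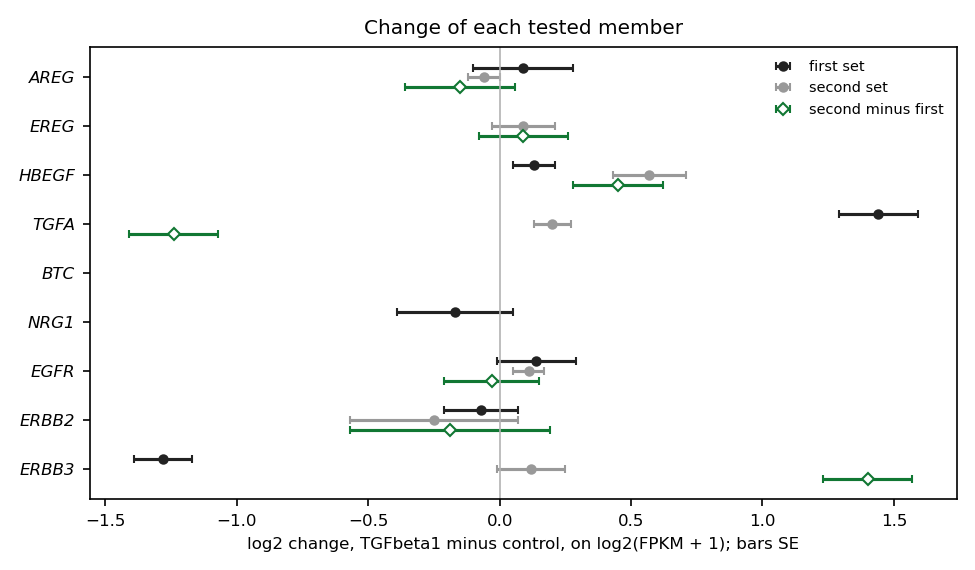
Log2 change with TGFbeta1 of each tested member on the log2(FPKM + 1) scale in the first set (black), in the second set (grey) and the difference of the sets (open diamonds), with SE; BTC had no test, and EREG and NRG1 were tested in 1 set only. TGFA (1.44) and ERBB3 (-1.28) stand apart in the first set, and their differences between sets (-1.24 and 1.4) pass the test.

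In the fit that joined the sets, 0 of 7 members passed limma's test, while 3 had an unadjusted p under 0.05 (TGFA, HBEGF and ERBB3), as had 19.2% of all tested genes. Of 10571 genes, 0.511% were called, 0.312% higher and 0.199% lower. The log2 change was 0.82 for TGFA (SE 0.20, adjusted p = 0.104) and -0.58 for ERBB3 (SE 0.23, adjusted p = 0.205). The difference between the sets passed the test for 2 of 7 members, TGFA and ERBB3, where 13.6% of all genes did. At an unadjusted p under 0.05 it was 3 of 7 members, HBEGF being the other, beside 27.0% of all genes.

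The rest of the pathway was read from lists of known genes. Among the other family members EPGN, the ligand epigen, had 12.8 ± 1.67 FPKM without and 9.2 ± 1.04 with TGFbeta1 in the first set (SD, n = 3; adjusted p = 0.0629), against 3.49 ± 0.455 and 4.98 ± 1.4 in the second set; the difference between sets was 0.83 (adjusted p = 0.0485). The founding ligand gene EGF was at 0.0261 ± 0.0122 FPKM without and 0.0572 ± 0.0101 with TGFbeta1 in the first set, without overlap. NRG2 went the other way, at 0.294 ± 0.029 and 0.0904 ± 0.0256, as did NRG4, at 0.125 ± 0.121 and 0.0 (SD, n = 3). EGF, NRG2 and NRG4 were chosen after their values were seen, and were under the minimum of the test. Of 12 genes for the shedding of ligands, 3 rose and 1 fell in the first set, with a median log2 change of 0.00. The metalloprotease gene ADAM19 rose from 2.22 ± 0.933 to 56.6 ± 0.333 FPKM and ADAM12 from 1.04 ± 0.138 to 3.39 ± 0.271, while ADAM15 fell from 101 ± 5.36 to 61.3 ± 0.757 (SD, n = 3; adjusted p = 0.000197, 0.00151 and 0.0014). ADAM17, the main sheddase of TGFA and AREG, is named outside the rule for genes: it was at 9.37 ± 0.561 and 10.4 ± 0.0969 FPKM (adjusted p = 0.256).

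Among 19 adaptors and genes of RAS activation 2 rose and 1 fell in the first set, with a median of -0.03. RASA1, a RAS inhibitor, rose by 0.53 on the log2 scale and the phospholipase gene PLCG1 by 0.54, and the adaptor gene NCK1 fell by 0.45. Of 21 receptor inhibitors and turnover genes 5 rose and 2 fell, with a median of 0.07. The adaptor gene SH3KBP1, which links receptors to endocytosis, rose to 49.3 ± 11.5 FPKM from 11.1 to 12.6 in the controls, and the inhibitor gene LRIG3 rose from 6.74 ± 0.567 to 11.2 ± 0.305. The ubiquitin ligase gene CBLC fell from 24.6 ± 2.96 to 13.9 ± 0.726 (SD, n = 3 each). ERRFI1, an inhibitor of the EGFR kinase chosen after its values were seen, had 37.8, 36.8 and 40.1 FPKM without TGFbeta1, against 21.2, 5.69 and 20.4 with it (adjusted p = 0.0955). All its TGFbeta1 libraries lay below the controls, TGFbeta1 2 far below the other two.

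Of 13 genes of MAP kinase feedback 10 were tested in the first set, with a median of -0.04. Limma called 0 of these 10, and 1 had an unadjusted p under 0.05, where 35% of all tested genes did. The untested genes, under the minimum mean, are named outside the rule. SPRED3 had 0.0972 ± 0.0779 FPKM without and 1.77 ± 0.186 with TGFbeta1, and SPRY1 1.61 ± 0.622 and 0.369 ± 0.0645 (SD, n = 3), both without overlap. SPRY4 overlapped, at 0.427 ± 0.286 and 0.996 ± 0.951 FPKM. The phosphatase genes DUSP6, DUSP4 and DUSP7 had log2 changes of 0.72, 0.36 and 0.19 (adjusted p = 0.0707, 0.181 and 0.208). The 18 tested genes known to respond to ERK were split, 4 rising and 3 falling around a median of -0.04: the urokinase receptor gene PLAUR rose by 1.78, and the membrane protein gene EMP1 and the neuropeptide precursor gene VGF fell by 1.42 and 1.64. Of 19 genes of the PI3 kinase chain 3 rose and 2 fell, with a median of -0.02. The catalytic subunit gene PIK3CD rose from 0.934 ± 0.0829 to 4.96 ± 0.49 FPKM and the phosphatase gene INPP4B from 7.93 ± 1.22 to 13.5 ± 0.82, while the regulatory subunit gene PIK3R3 fell from 3.98 ± 0.362 to 2.0 ± 0.185 (SD, n = 3). Called shares in these lists stand beside 20.9% over all genes, with a median log2 change of -0.05.

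None of these pathway lists had a gene past limma's test in the second set (0). At an unadjusted p under 0.05 there were 2 of 11 shedding genes, 2 of 19 adaptors, 3 of 22 inhibitors, 4 of 12 feedback genes, 2 of 20 ERK-responsive genes and 4 of 21 PI3 kinase genes, beside 11.2% of all tested genes. The smallest p of each list belonged to ADAM12 (log2 change -0.46, adjusted p = 0.207), GRB7 (0.34, 0.14), SPRY2 (-0.27, 0.34), DUSP1 (0.23, 0.167), EGR1 (-0.24, 0.359) and PIK3R1 (-0.56, 0.29). GRB7 encodes an adaptor of ERBB2 and was at 12.9 ± 0.252 and 16.6 ± 0.809 FPKM (SD, n = 3).

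**Figure D4:**
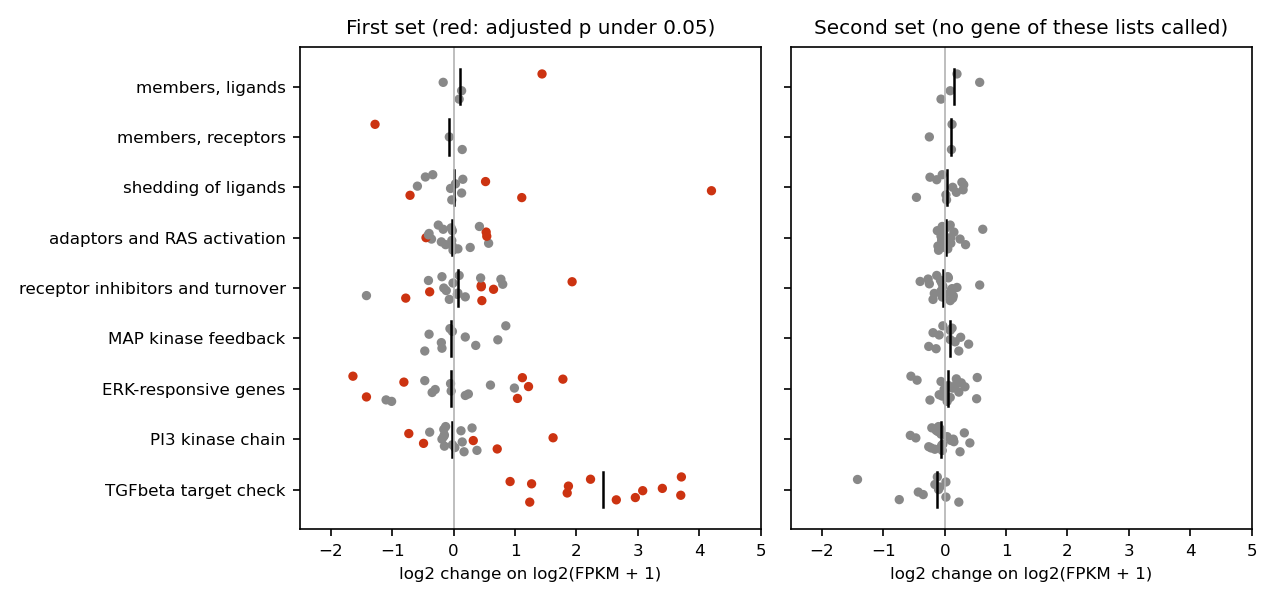
Log2 change with TGFbeta1 of every tested gene of the members, of 6 pathway lists and of the TGFbeta targets, in the first set (left) and the second set (right), on the log2(FPKM + 1) scale; red points have an adjusted p under 0.05 and black bars are list medians. The TGFbeta targets have medians of 2.44 (first set) and -0.12 (second set), while in the first set the medians are 0.11 for member ligands, -0.07 for member receptors and -0.04 to 0.07 for the 6 pathway lists.

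The genes whose pattern was most like that of a member were found over the 12 libraries, by Pearson's r of log2(FPKM + 1) centred on each set's mean, among 10005 other genes. The libraries fall into groups and share their normalisation, so r is a measure of likeness only. TGFA was most like HSP90B1, a chaperone of the endoplasmic reticulum (r = 0.993), and SH2B3, a signalling adaptor (r = 0.992), and 256 genes reached 0.9. ERBB3 was most like RAB11FIP1, a factor of vesicle recycling, and TTC9 (r = 0.988 each), and 355 genes reached 0.9. HSP90B1 was at 188 and 320 FPKM in control and TGFbeta1 libraries of the first set, and at 214 and 217 in those of the second, and RAB11FIP1 at 11.8 and 2.67, then 4.44 and 5.43. The centring keeps the difference between control and TGFbeta1, so the counts of 256 and 355 largely restate the calls of TGFA and ERBB3. Among the other members compared, 5 genes reached 0.9 for HBEGF, 1 for AREG and 0 for EGFR and ERBB2. The most alike were S100PBP and DAPP1 for HBEGF (0.952 and 0.933) and RILPL1 and SIK2 for AREG (0.914 and 0.879). For EGFR they were LRP11 and TMED4 (0.9, rounded up, and 0.876), and for ERBB2 FADS3 and TYMS (0.874 and 0.862). EREG, BTC and NRG1 were not compared.

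Markers of cell types moved with the agent in the first set as well. The summed FPKM of basal markers was 2875.4 to 3646.6 in the controls and 4569.1 to 4684.6 with TGFbeta1, and 6 of 10 rose, among them LAMA3 and LAMB3, which encode laminin chains, while KRT5 fell. Luminal markers, of which 7 of 11 were listed, summed to 345 to 436 and to 240 to 463 FPKM, and 2 of 5 tested fell, MUC1 and KRT18. Of 9 stromal fibroblast markers 2 were listed, FAP and DCN, and both rose; their sum was 7.19 to 7.53 and 42.8 to 44.5 FPKM. In the second set DCN was lower in the libraries labelled TGFbeta1, at 12.4 ± 1.82 FPKM against 28.6 ± 1.97 in the controls (SD, n = 3, adjusted p = 0.038 by limma). Of 9 leukocyte and endothelial markers 3 were listed, summing to 23.3 to 24.7 and 18.5 to 22.0 FPKM. The 2 tested went opposite ways: CD68 fell from 22.8 ± 0.802 to 16.2 ± 2.18 FPKM and CSF1R rose from 1.34 ± 0.144 to 3.7 ± 0.388 (SD, n = 3; adjusted p = 0.0306 and 0.0023 by limma). Their part in the changes of TGFA and ERBB3 was not tested.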

How the data were processed

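MCF-12A libraries, 6 control and 6 TGFbeta1, were used as deposited. The authors deposited FPKM per protein-coding transcript in 2 tables (replicates 1 to 3 and 4 to 6); the first table names no unit, and FPKM was inferred from its values and from StringTie. HISAT2 2.0.4, StringTie 1.2.3 and hg19 are named per the submitters' processing notes; the sources used here give no settings, strandedness or annotation release. The second table also carries the authors' deposited log2 changes, fold (ratio), p-values and q-values; their test is not named.

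FPKM was summed per gene symbol (196 symbols of the first table renamed through 27453 shared transcripts, none touching a member). Genes with a mean of at least 1 FPKM were tested within a set on log2(FPKM + 1) with limma 3.58.1 in R 4.3.3 (mean-variance trend, two-sided, Benjamini-Hochberg adjustment over all tested genes, threshold 0.05); this scale understates changes of low genes. Sets were joined with a set term and an interaction, for genes with a mean of at least 1 FPKM over all 12 libraries. Tables and plots were made with Python 3.11.15, pandas 2.3.3, numpy 2.4.6 and matplotlib 3.10.9. The code was tested on simulated data. Members and lists were chosen with earlier results of these data known.

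The rule for named genes took all 9 members, the 3 genes of each list with the smallest p in the first set and the 1 in the second, 5 TGFbeta targets as label checks, and the 2 genes most like each member with a mean of at least 1 FPKM in both sets. Not every gene named by this rule is reported here. FPKM is relative to the library's own total, so abundant genes that change shift all others. Depth is unknown. The files of the libraries all differ. Alternatives covered the pseudocount, filter, scaling, variance model, transcripts summed, each library left out, and the replicate number as a block.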

Additional observations from a re-analysis of the deposited data

Results flagged for a closer look

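The change of TGFA with TGFbeta1 differed between the sets. Its log2 change was 1.44 in the first set, against 0.20 in the second, and the test of the difference gave -1.24 (SE 0.17, adjusted p = 0.00101 by limma). In each set, 3 of 3 libraries labelled TGFbeta1 lay above all controls.

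The change of ERBB3 differed between the sets as well. First-set libraries gave a log2 change of -1.28 and second-set libraries 0.12, and the test of the difference gave 1.4 (SE 0.17, adjusted p = 0.000439). Targets of TGFbeta differed between the sets too, as the check of the labels shows, and the part this has in either difference was not tested.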

How the results depend on the processing

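The calls of TGFA and ERBB3 in the first set and in the interaction held under every alternative that tested them. For TGFA the first set's log2 change ran from 1.28 to 1.52 (adjusted p of 0.00161 to 0.0138) and for ERBB3 from -1.75 to -1.19 (0.00116 to 0.0192). At a minimum mean of 5 FPKM ERBB3 was not tested, so that 1 member was called in the first set and 1 in the interaction, in place of 2. No member was called in the second set or over both sets under any alternative. Small changes that passed no test turned sign: ERBB2 in the first set to 0.02 with an equal sum per library and, with 1 library left out, to between -0.16 and 0.04; AREG there to between -0.07 and 0.22, over both sets to between -0.06 and 0.07 and in the interaction to between -0.28 and 0.01; EGFR in the first set to between -0.02 and 0.22 and in the interaction to between -0.11 and 0.13; and ERBB2 in the second set to between -0.59 and 0.02 and in the interaction to between -0.52 and 0.09.

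Counts over all genes depended more on the setting, and the cause was not tested. The first set's 2186 calls became 1354 to 2030 with 1 library left out, and lost over 1.5 times without control 1 or 2 or TGFbeta1 1 or 2. The second set's 34 became 17 with an equal sum, 20 without the variance trend and 0 to 23 with 1 library left out (0 without control 4, 23 without TGFbeta1 5). The 54 over both sets became 30 at a pseudocount of 0.1 and 10 to 83 with 1 library left out (10 without TGFbeta1 2, 83 without TGFbeta1 6). In the interaction the 797 higher and 639 lower calls became 522 and 772 with an equal sum per library.

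Same-numbered libraries deviated together only weakly (r of 0.00746 to 0.0457 over genes), which does not settle whether the numbers pair them. With the replicate number as a block the calls were 1211 in the first set, 0 in the second and 0 over both sets; TGFA and ERBB3 kept theirs in the first set (adjusted p = 0.0138 and 0.0192). In the second set every library correlated best with its own number; in the first, control 3 and TGFbeta1 3 did not. Depth is unknown, so limits from counting cannot be given.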
